A study of Mus musculus with 60 samples.

Results

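Neurotransmitter receptor genes were examined for H3K27me3, the trimethylation of histone H3 lysine 27 that Polycomb repressive complex 2 deposits at silent developmental genes, in mouse embryonic stem cells (ESCs) put through a protocol for anterior neural progenitor cells. The genes were chosen by symbol among the protein-coding genes of GENCODE M21: the GABA-A, GABA-rho, glycine, AMPA, kainate, metabotropic glutamate, nicotinic, muscarinic, serotonin, dopamine and adrenergic receptor genes, 90 of 21866 in all. The symbol pattern also aimed at NMDA receptor genes but, read literally, matched none of them, so the 7 Grin genes were kept apart and are described as related genes. The promoter reached 1.5 kb to either side of each protein-coding transcript start. It counted as called if an H3K27me3 peak of the library covered 1 bp or more of it.

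The mark was mapped by CUT&RUN, in which an antibody brings a nuclease to the chromatin it binds, in 30 libraries, with a matched IgG library for each. WT cells, Tet1 KO cells and Tet1 MUT cells, whose TET1 protein lacks catalytic activity, were taken on days 0, 2, 3 and 5 of differentiation. A further day 5 sample (day 5 XAV) had been given 5 µM XAV939, a Wnt inhibitor, since day 2. All lines were male ESCs whose strain label is an F1 hybrid with the Tet1 tm1Koh allele, WT lines included, the MUT lines were clones repaired by CRISPR from a single WT parental line, and cells received bFGF until day 3. Each genotype had 2 cell lines per time point, which are the replicates: WT70 and WT72 throughout, KO15 with KO25 (days 0 and 2) or KO1 (later), and CM59 with CM40 (days 0 and 2) or CM69 (later). The second KO and MUT lines therefore changed between day 2 and day 3, and for KO25 the free-text description names WT70 while title, line and genotype fields name KO25, which were followed.

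Transmitter receptors are of 2 kinds. Ionotropic receptors are ligand-gated ion channels assembled from several subunits: GABA-A and glycine receptors pass chloride and usually inhibit, while AMPA, kainate and nicotinic receptors pass cations and excite. Metabotropic receptors are single proteins that signal through G proteins, and they include the metabotropic glutamate, muscarinic, dopamine and adrenergic receptors and all serotonin receptors except the Htr3 channels. Most of them are known from neurons. In ESCs, Polycomb marks many CpG-rich promoters of genes that are silent there.

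Peak numbers ran from 704 to 3466 per library (median 1789), and no pair of libraries had identical peaks. Read depth cannot be read from the peak files. The number of peaks is given in its place, but a change in the mark itself could also alter that number. In these bulk libraries, fewer cells with the mark and less of the mark per cell cannot be told apart. Hox cluster promoters, a standard Polycomb target, were called in 99.6% ± 0.983 of cases per library after day 2 (SD, n = 18), and the 5 housekeeping promoters in 0%. Among markers of cell state, the promoters of the pluripotency factor Pou5f1 were called in 0 of 18 libraries up to day 3 and in 11 of 12 at day 5 with or without XAV, while Esrrb was called in 30 libraries, Klf4 in 21, with 0 of 6 at day 0 and 6 of 6 at day 2, and Nanog and Zfp42 in 0. Of 6 neural progenitor genes, Lhx2, Pax6 and Six3 were called in 30 libraries, Sox1 in 29, Sox2 in 2 (both KO lines at day 5) and Hesx1 in 0. These calls do not settle the cell type of a library. The Tet1 promoter was called in 0 libraries and so does not check the genotype labels.

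Promoters that stand for the main behaviours of the receptor genes are printed here from RefSeq (GRCm38.p6, 250 bases before to 50 after a start, 67 of 90 genes matched), in lower case with CG dinucleotides, the sites of DNA methylation, in capitals. Adra2a at chr19:54045009-54045308 (plus strand), with 28 CGs, was called in all 30 libraries, Grm3 at chr5:9725303-9725602 (minus strand) and Gabra4 at chr5:71658259-71658558 (minus strand), with 11 and 12, differed most between KO and WT, and Gabra3 at chrX:72656870-72657169 (minus strand), with 0, was called in none. Grik3 at chr4:125490446-125490745 (plus strand), with 50, and Grm6 at chr11:50850435-50850734 (plus strand), with 4, lost and regained their peaks over the time course and were added after their values were seen.
Adra2a: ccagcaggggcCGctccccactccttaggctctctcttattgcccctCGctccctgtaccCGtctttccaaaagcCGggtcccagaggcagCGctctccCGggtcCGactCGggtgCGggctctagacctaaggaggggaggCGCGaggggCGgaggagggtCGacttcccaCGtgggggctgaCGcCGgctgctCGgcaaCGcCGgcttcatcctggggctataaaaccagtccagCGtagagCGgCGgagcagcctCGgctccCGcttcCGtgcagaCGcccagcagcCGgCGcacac
Grm3: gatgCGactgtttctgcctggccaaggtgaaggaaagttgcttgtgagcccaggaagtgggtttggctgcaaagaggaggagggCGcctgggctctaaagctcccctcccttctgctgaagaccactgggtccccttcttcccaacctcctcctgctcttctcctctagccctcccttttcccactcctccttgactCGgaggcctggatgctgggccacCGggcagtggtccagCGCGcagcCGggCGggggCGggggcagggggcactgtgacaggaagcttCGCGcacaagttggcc
Gabra4: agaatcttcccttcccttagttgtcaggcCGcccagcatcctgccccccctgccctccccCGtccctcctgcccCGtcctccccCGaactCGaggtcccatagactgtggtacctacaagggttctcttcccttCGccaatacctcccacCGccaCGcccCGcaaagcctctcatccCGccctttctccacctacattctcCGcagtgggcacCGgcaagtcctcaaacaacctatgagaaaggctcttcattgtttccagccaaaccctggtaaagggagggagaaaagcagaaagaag
Gabra3: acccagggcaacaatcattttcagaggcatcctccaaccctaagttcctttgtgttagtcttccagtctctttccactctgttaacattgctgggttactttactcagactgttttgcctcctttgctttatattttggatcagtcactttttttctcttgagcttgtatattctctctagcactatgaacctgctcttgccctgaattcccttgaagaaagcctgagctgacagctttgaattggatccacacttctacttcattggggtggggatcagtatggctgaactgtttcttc
Grik3: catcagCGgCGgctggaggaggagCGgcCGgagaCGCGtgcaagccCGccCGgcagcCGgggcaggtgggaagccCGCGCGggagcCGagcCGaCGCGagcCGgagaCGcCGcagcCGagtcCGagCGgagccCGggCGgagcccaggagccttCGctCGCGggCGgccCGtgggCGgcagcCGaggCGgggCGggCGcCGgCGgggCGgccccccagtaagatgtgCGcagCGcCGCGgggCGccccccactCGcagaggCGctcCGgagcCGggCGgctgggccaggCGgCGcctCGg
Grm6: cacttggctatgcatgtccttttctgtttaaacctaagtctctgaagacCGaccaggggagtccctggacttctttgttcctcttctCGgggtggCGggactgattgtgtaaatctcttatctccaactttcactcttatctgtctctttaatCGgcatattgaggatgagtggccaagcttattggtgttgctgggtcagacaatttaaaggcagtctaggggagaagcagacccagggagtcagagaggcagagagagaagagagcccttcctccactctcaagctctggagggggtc

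Receptor promoters carried H3K27me3 far more often than the average promoter. Of the 90 genes, 52 (57.8%) were called in at least 1 library, against 16.4% of all protein-coding promoters, and 6 (6.67%) were called in all 30, against 2.01%. These 6 were the adrenergic receptor genes Adra1d, Adra2a, Adra2c and Adrb1, the muscarinic receptor gene Chrm3 and the GABA-A subunit gene Gabra5. Another 4 genes missed a single library: Grm8, Chrm2 and the serotonin receptor genes Htr1a and Htr6. These shares describe the genes and were not tested.

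**Figure D1:**
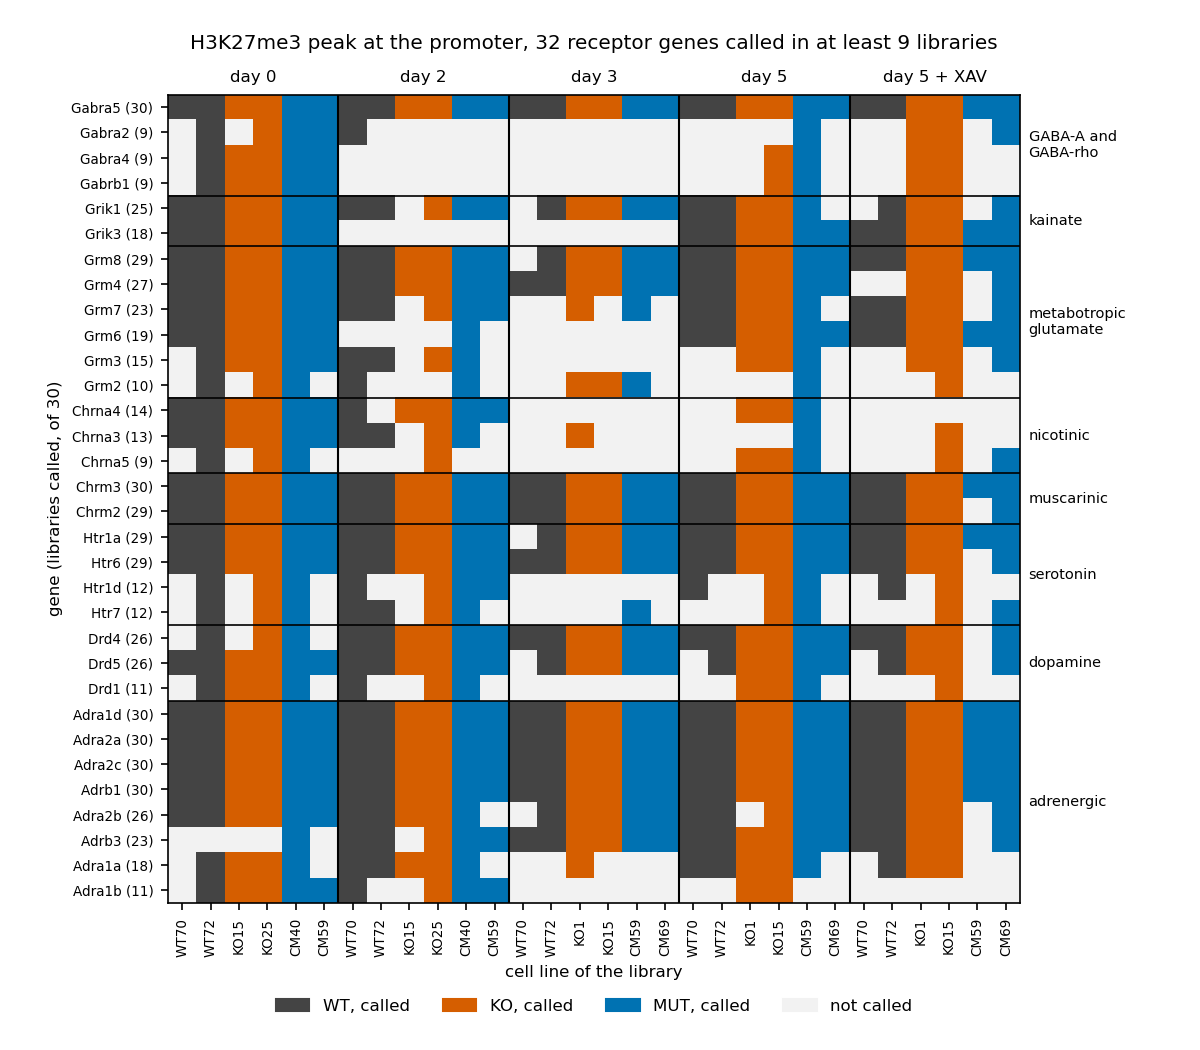
H3K27me3 calls at the 32 receptor promoters called in at least 9 libraries (rows, grouped by receptor family, with the number of libraries in brackets) in each of the 30 libraries (columns, grouped by time point). A coloured cell is a call, and the colour gives the genotype. Adra1d, Adra2a, Adra2c, Adrb1, Chrm3 and Gabra5 are filled in every column, while Grik3 and Grm6 are blank in all 6 day 3 columns and filled at day 0 and day 5.

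The calls followed the kind of receptor, a split made after the values were seen. Of 39 genes for G protein-coupled receptors, 32 (82.1%) were called somewhere and 15 (38.5%) in at least 23 libraries, against 4.24% of all promoters at that level. Of 51 ion channel subunit genes, 20 (39.2%) were called somewhere and only Gabra5 and the kainate subunit gene Grik1 (3.92%) in at least 23 libraries. Per library, 47.8% ± 13.4 of the receptor genes of the first kind and 12.1% ± 9.44 of the channel genes were called (SD, n = 30).

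The adrenergic receptors, which bind noradrenaline and adrenaline, were the most often marked family, with a mean of 22 of 30 libraries per gene. Beside the 4 promoters called throughout, Adra2b was called in 26 libraries, Adrb3 in 23, Adra1a in 18 and Adra1b in 11. Adrb1 (chr19:56722199-56733113, plus strand), the receptor through which noradrenaline speeds the heart, had a peak of 5690 to 11480 bp whose total signal ranked between the 64.5th and the 90.2nd percentile of its library. Adra1d (chr2:131545850-131562283, minus strand) had peaks up to 19715 bp wide at day 2, against at most 8295 bp at day 3. Adra2c ranked at a median percentile of 88.5 at day 0 and 73.6 at day 5 XAV (n = 6 libraries each). In the day 5 XAV library of CM59, which had the fewest peaks of all (704), these 4 promoters were still called.

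Metabotropic glutamate receptors, which adjust synaptic strength through G proteins, were the only family with all members called, 8 of 8. Grm8 was called in 29 libraries, Grm4 in 27, Grm7 in 23, Grm6 in 19, Grm3 in 15, Grm2 in 10 and Grm5 in 2. Grm4 carried the widest peak seen at any receptor gene, 21847 bp, and the highest median rank, the 83.7th percentile.

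Muscarinic receptors were split within the family: Chrm3 was called in 30 libraries and Chrm2, the receptor that slows the heart, in 29, but Chrm4 in 6 and Chrm1 and Chrm5 in none. Dopamine receptor genes were called in 26 libraries for Drd4 and for Drd5, in 11 for Drd1 and in 5 for Drd2, the target of antipsychotic drugs, and in none for Drd3. Among 14 serotonin receptor genes, Htr1a and Htr6 stood at 29 libraries, followed by Htr1d and Htr7 at 12, Htr1b at 6, Htr1f and Htr4 at 4, Htr5b at 3 and Htr2c at 1. The other 5 serotonin receptor genes, Htr2a, Htr2b, Htr3a, Htr3b and Htr5a, were called in no library.

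Channel subunits were called less. In the GABA-A and GABA-rho family, Gabra5 was called in 30 libraries and the next genes, Gabra2, Gabra4 and Gabrb1, in 9 each. Gabra4 and Gabrb1 are neighbours whose starts lie under the same peak, so their calls are 1 observation. Gabrd was called in 7 libraries, Gabrg3 in 5, and Gabrb2 and Gabrq in 1 each, while Gabra3, Gabra6, Gabre, Gabrg1, Gabrp, Gabrr1, Gabrr2 and Gabrr3 were among those called in none. Of the glycine receptor genes, Glrb (7 libraries) and Glra1 (4) were called and Glra2, Glra3 and Glra4 were not. Of the AMPA receptor genes, Gria2, whose subunit makes the channel impermeable to calcium, was called in 5 libraries and Gria1, Gria3 and Gria4 in none.

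Kainate receptor genes stood apart from the other channels, with Grik1 called in 25 libraries, Grik3 in 18, Grik2 in 8, Grik4 in 1 and Grik5 in none. Of 16 nicotinic subunit genes, Chrna4 was called in 14 libraries, Chrna3 in 13, Chrna5 in 9 and the muscle subunit gene Chrnd in 2, its region shared with the start of Prss56. Chrna1, Chrna2, Chrna6, Chrna7, Chrna9, Chrna10, Chrnb1, Chrnb2, Chrnb3, Chrnb4, Chrne and Chrng were called in none. On the X chromosome, 2 of 7 receptor genes were called, Gabrq and Htr2c, each in a single library, and 6.65% of all X promoters were called somewhere. Apart from Gabra4 with Gabrb1, Chrnd with Prss56 and Adrb3 with Got1l1, no merged peak region at a receptor promoter held the start of another protein-coding gene.

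The rank of a receptor gene's peak within its library went with the number of libraries that called it. Median percentiles of total peak signal were 73.5 over the 6 genes called throughout, 47.9 over the 11 called in 23 to 29 libraries, 38 over the 6 called in 13 to 22 and 23.6 over the 29 called in 1 to 12. Receptor peaks had a median width of 5148 bp, against 5394 bp for all peaks. Within a group of 2 lines, the calls of the library with fewer peaks were nearly always contained in those of the other. In 13 of the 15 groups, no receptor promoter was called in the smaller library alone. Summed over groups, 286 calls were shared, 170 were made in the larger library alone and 2 in the smaller alone. All promoters were nested in a similar way. The larger library lacked 0.694% of the smaller library's receptor calls, against a median of 1.58% over all promoters (0.294% to 5.76% by group).

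CpG content differed between the called and the uncalled genes. In the 500 bp to each side of the gene's 5′ end, the ratio of observed to expected CG dinucleotides had a median of 0.783 for the 6 genes called throughout, 0.586 for 17 genes called in 13 to 29 libraries, 0.559 for 29 genes called in 1 to 12 and 0.241 for the 38 genes never called. Over all promoters the same medians were 0.692, 0.681, 0.626 and 0.493. At a ratio of at least 0.6, 23 of 26 receptor genes (88.5%) were called somewhere, against 21.5% of all promoters of that kind, and under 0.6 it was 29 of 64 (45.3%) against 12%. CpG-poor promoters differed between the kinds of receptor: under 0.6, 21 of 27 genes for G protein-coupled receptors (77.8%) were called and 8 of 37 channel genes (21.6%). The ratio was read at the annotated 5′ end, which for Adra2a lies upstream of the RefSeq start, with a ratio of 0.418 there and 0.794 in the promoter printed above. A call could come from any start of a gene, and 57 of the 90 genes have more than 1. For Adra1b (0.305) and Adrb3 (0.308), both counted under 0.6, the peaks lie away from the annotated 5′ end, so the ratio does not describe the marked site. The peaks of Chrm4 (0.238) and Chrnd (0.138) end upstream of the gene. The KO15 peak of Chrna4 (0.155) at day 5 also lies away from the 5′ end. Other genes counted under 0.6 may share this mismatch.

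**Figure D2:**
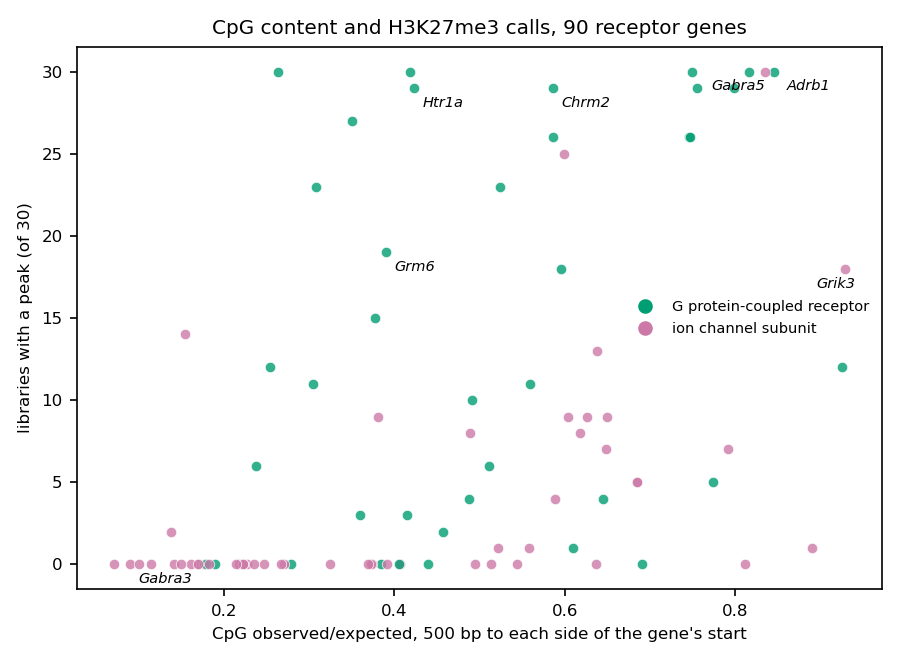
Ratio of observed to expected CpG in the 500 bp to each side of the gene's 5′ end (horizontal axis) and the number of libraries with an H3K27me3 peak at the promoter (vertical axis, of 30) for the 90 receptor genes, 1 point per gene, coloured by kind of receptor. Most genes never called lie at low ratios, Gabra3 at 0.0905, while Adrb1 (0.845) and Gabra5 (0.835) were called in every library and Htr1a (0.423) in 29.

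Over the time course, receptor promoters carried the mark most often in ESCs and least often at day 3. In the 6 libraries of each time point, 37.8% ± 12.7 of the 90 promoters were called at day 0, 28.3% ± 7.63 at day 2, 18.3% ± 3.5 at day 3 and 28.3% ± 9.6 at day 5, with 25% ± 10.7 under XAV (SD, n = 6). Over all promoters the shares were 8.8% ± 2.83, 7.5% ± 1.29, 5.4% ± 1.32, 7.13% ± 2.73 and 6.48% ± 2.26. Days 3 and 5 together stood 9.72 points below days 0 and 2 for the receptor genes, 23.3% ± 8.65 against 33.1% ± 11.2 (SD, n = 12), a gap smaller than the spread between libraries of the same genotype and day (10.8 points). The ratio of the later to the earlier share was 0.706 for the receptor genes and 0.769 for all promoters. With the same number of strongest peaks kept in every library (704), the gap was -0.741 points. Since it fixes the number of peaks, that setting cannot show a general change of the mark over time. Mean peak numbers were also highest at day 0 (2486) and lowest at day 3 (1486), with 1840 at day 2, 1926 at day 5 and 1657 under XAV. Over all libraries, peak number and receptor share had a Pearson r of 0.947. KO25 and CM40 were present at days 0 and 2 only, and over the lines present in both periods the gap was smaller (last section). The part of peak number in the time course was not tested.

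The mean share was lower at day 3 than at day 0 for both kinds of receptor, and a difference between their courses was not tested. Channel genes were called in 22.5% ± 9.67 of cases at day 0, 10.5% ± 5.9 at day 2 and 3.92% ± 1.24 at day 3, and genes for G protein-coupled receptors in 57.7% ± 17, 51.7% ± 10.7 and 37.2% ± 6.64 (SD, n = 6), beside 8.8%, 7.5% and 5.4% of all promoters. At day 3, 48 of the 51 channel promoters were called in none of the 6 libraries, as were 20174 of all 21866 promoters. Nicotinic genes stood at 15.6% at day 0 and 1.04% at day 3, and metabotropic glutamate receptor genes at 72.9% and 33.3%. Adrenergic receptor genes were between 66.7% and 79.6% at all 5 time points.

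**Figure D3:**
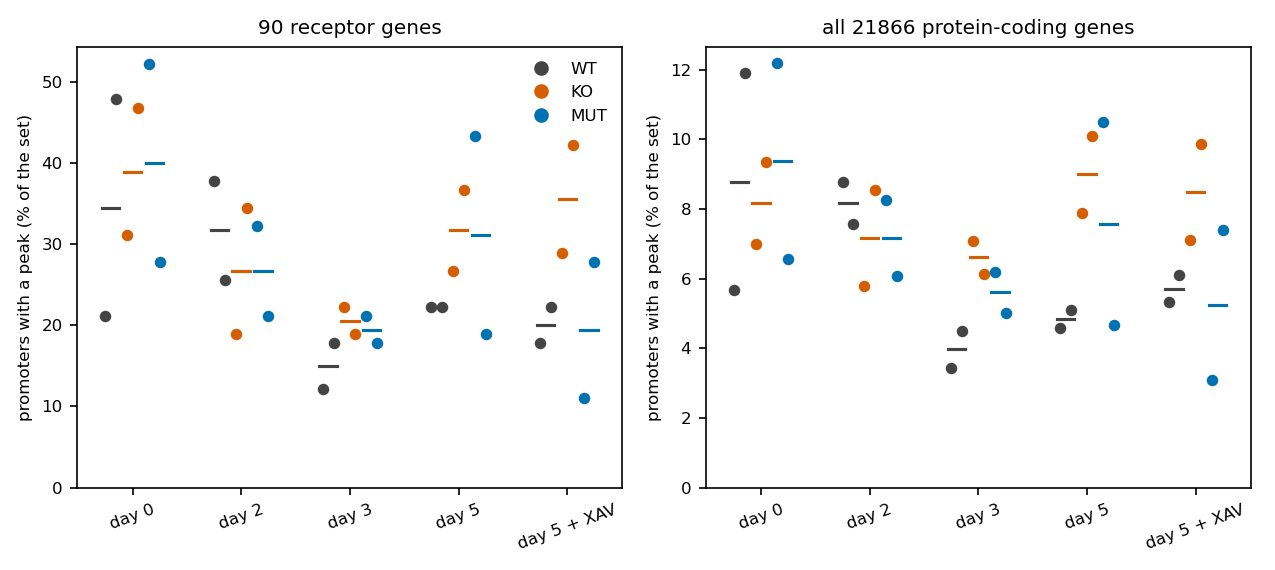
Share of promoters with an H3K27me3 peak (vertical axes, percent, different scales) by time point for the 90 receptor genes (left) and all protein-coding genes (right). Each point is a library and each bar the mean of the 2 lines of a genotype. At day 3 all 6 libraries lie between 12.2% and 22.2% for the receptor genes, and the 2 WT lines lie below both KO lines in both panels from day 3 on.

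Single promoters were tested over all genes by an exact conditional test of the calls, stratified by genotype and adjusted by Benjamini-Hochberg over 3099 promoters called in at least 2 of the libraries concerned. Between days 3 and 5 and days 0 and 2, 96 promoters (3.1%) passed an adjusted p of 0.05, 7 called more often later and 89 less often, and 0 of the 47 receptor promoters tested were among them, with 7 of the 47 and 446 of the 3099 at an unadjusted p under 0.05. The test takes days of the same line as independent, and with the line as a block 0 promoters passed. The block keeps only lines present in both periods, so its smallest possible p is larger and a missing call there cannot decide. Without WT72, 20 passed. Of the 47, 2 (4.26%) were called in more and 34 (72.3%) in fewer of the later libraries, against 18.4% and 57.5% of all promoters tested.

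Chrna4 (chr2:181018380-181043546, minus strand), the subunit of the main high-affinity nicotine receptor of the brain, came closest. It was called in 6 of 6 libraries at day 0, 5 of 6 at day 2, 0 of 6 at day 3, 3 of 6 at day 5 and 0 of 6 at day 5 XAV (11 of 12 early, 3 of 12 late, exact p = 0.00219, adjusted p = 0.0569). Both lines of KO and CM59 made up the 3 calls at day 5. Chrna3, a subunit of ganglionic nicotine receptors, was called in 10 early and 2 late libraries (exact p = 0.00539, adjusted p = 0.104). The next values were 7 and 0 for Grik2 (adjusted p = 0.106 in the exact test) and 9 and 2 for Adra1b (0.157). The peaks of Adra1b lie away from the gene's annotated 5′ end, where no library had one. Then came 9 and 3 for Grm3 (0.322), 5 and 0 for Chrm4 (0.322) and 4 and 0 for Gria2 (0.496). The early Chrm4 peaks covered only 347 to 1345 bp of the 3001 bp window. For Gria2 the early peaks, all at day 0, covered 155 bp in CM40, 175 bp in KO25, 189 bp in WT72 and 2149 bp in KO15. With a 3 kb window, Chrm4 was instead called in 16.7 percentage points more of the later libraries.

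Adrb3 (chr8:27225776-27250616, minus strand), the receptor that drives fat breakdown in fat cells, went the other way. It was called in 1 of 6 libraries at day 0, 5 of 6 at day 2 and all 6 at day 3 and at day 5 (6 of 12 early, 12 of 12 late, exact p = 0.0153, adjusted p = 0.179). Its region also holds the start of Got1l1, so the call cannot be given to Adrb3 alone. The window at the gene's annotated 5′ end alone held no peak in any library, so that setting cannot compare the days. Adrb3 and Drd4, the latter with 3, 6, 6 and 6 of 6 libraries at days 0, 2, 3 and 5, were the 2 receptor genes called in at most 3 of 6 libraries at day 0 and in at least 5 of 6 at both day 3 and day 5, a pattern of 0.252% of all promoters. For Drd4 the peak covered 684 to 769 bp of the window in 11 libraries and at least 2112 bp in the other 15.

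Grik3 had a peak in ESCs and at day 5 and none between in every genotype, and Grm6 followed the same course but for 1 MUT library at day 2. Grik3 (chr4:125490700-125714173, plus strand), a kainate receptor subunit, was called in 6 of 6 libraries at day 0, 0 of 6 at day 2, 0 of 6 at day 3 and 6 of 6 on day 5 whether or not XAV was given. Its peak covered 2697 to 3001 bp of the 3001 bp window at day 0 and the whole window in all 12 libraries at day 5 with or without XAV. The rank of that peak within its library had a median percentile of 53.7 in ESCs, and of 79.3 without and 87.5 with XAV on day 5 (n = 6 each). Grm6 (chr11:50850685-50866208, plus strand), the receptor of retinal ON bipolar cells, was called in 6, 1, 0, 6 and 6 of 6 libraries in the same order, the single call at day 2 being CM40. Both genes lie in regions with no other protein-coding start.

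This pattern, at least 5 of 6 libraries at day 0, at most 1 at day 3 and at least 5 at day 5, was chosen after the values were seen and held for 0.174% of all promoters. The contrast of later with earlier days does not register it (exact p = 1, adjusted p = 1 for both), which pools the 2 days. Grik3 had no call at days 2 and 3 under any of the 7 other window and peak settings. With the same number of strongest peaks in every library it was called in 1 of 6 at day 0 and 6 of 6 at day 5, and Grm6 in 2 and 0 of 6, so at that threshold Grik3 kept the later peak and Grm6 had neither at day 5 without XAV. The promoter sequences of the 2 genes differ widely in CG content, with 50 CGs and a ratio of 1.01 for Grik3 and 4 CGs and a ratio of 0.218 for Grm6. Loss without a return, at least 5 of 6 libraries at day 0 and at most 1 at day 3 and at day 5, held for Chrna3 and Htr1b (0.595% of all promoters).

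**Figure D4:**
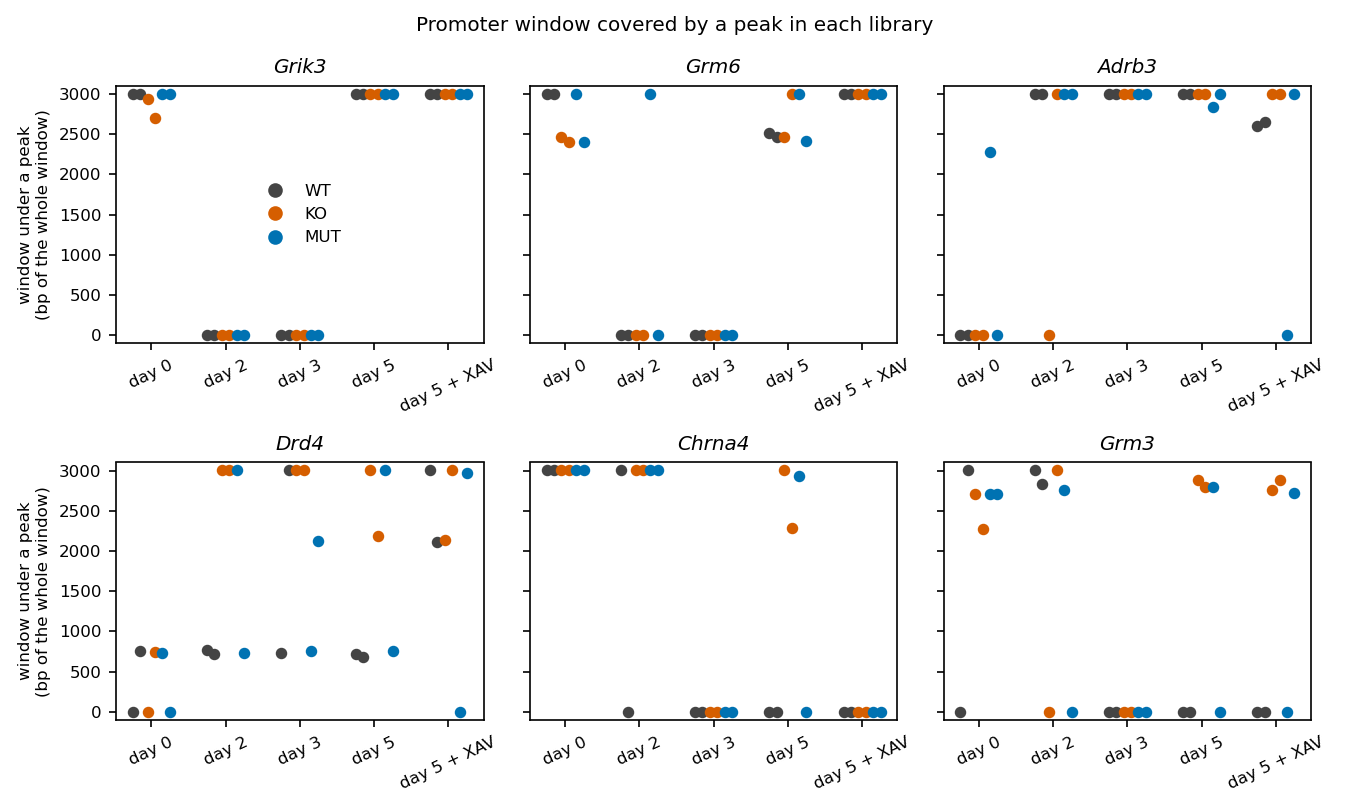
Length of the 3001 bp promoter window under an H3K27me3 peak (vertical axis, bp, the best covered start of a gene) in each library by time point (horizontal axis) for Grik3, Grm6, Adrb3, Drd4, Chrna4 and Grm3, with 1 point per library coloured by genotype. Grik3 lies at 0 in all 12 libraries of days 2 and 3 and at 3001 bp in all 12 libraries of day 5 and day 5 XAV, and Grm3 after day 2 is covered in 4 KO, 2 MUT and 0 WT libraries.

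KO libraries had more receptor promoters under the mark than WT libraries after day 2. The study concerns the choice of germ layer, so without XAV the KO and WT cells of these days need not be of the same cell type. In those libraries cell type and genotype cannot be told apart. With the inhibitor, the paper reports a uniform forebrain population from KO and WT cells alike. The XAV libraries therefore compare the genotypes in cells that the paper describes as matched. Cell type was not measured in the libraries used here, and its part in the difference was not tested. In libraries of day 3, day 5 and day 5 XAV, 29.3% ± 8.8 of the 90 promoters were called in KO and 19.1% ± 4 in WT (SD, n = 6), 10.2 points apart, where libraries of the same genotype and day spread by 5.32 points. By time point, WT70 and WT72 stood at 12.2% and 17.8% at day 3 and KO1 and KO15 at 22.2% and 18.9%. At day 5 both WT lines stood at 22.2% and the KO lines at 26.7% and 36.7%, and at day 5 XAV the WT lines at 17.8% and 22.2% and the KO lines at 28.9% and 42.2%. The KO and WT values did not overlap at any of these time points. With 2 lines against 2, a single time point cannot go below an exact p of 0.333.

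All promoters behaved alike in this respect, with 8.03% ± 1.61 called in KO and 4.84% ± 0.899 in WT. The ratio of KO to WT was 1.53 for the receptor genes and 1.66 for all promoters. KO libraries also held more peaks after day 2, 1729 to 2738 against 969 to 1717 in WT. When every library of a time point was reduced to the same number of its strongest peaks, the KO share was 13.1% and the WT share 14.8%, so the difference was -1.67 points. That setting gives KO and WT equal peak numbers, so it cannot show a general gain of the mark in KO. It compares only which promoters hold the strongest peaks. The part of peak number in the difference was not tested.

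**Figure D5:**
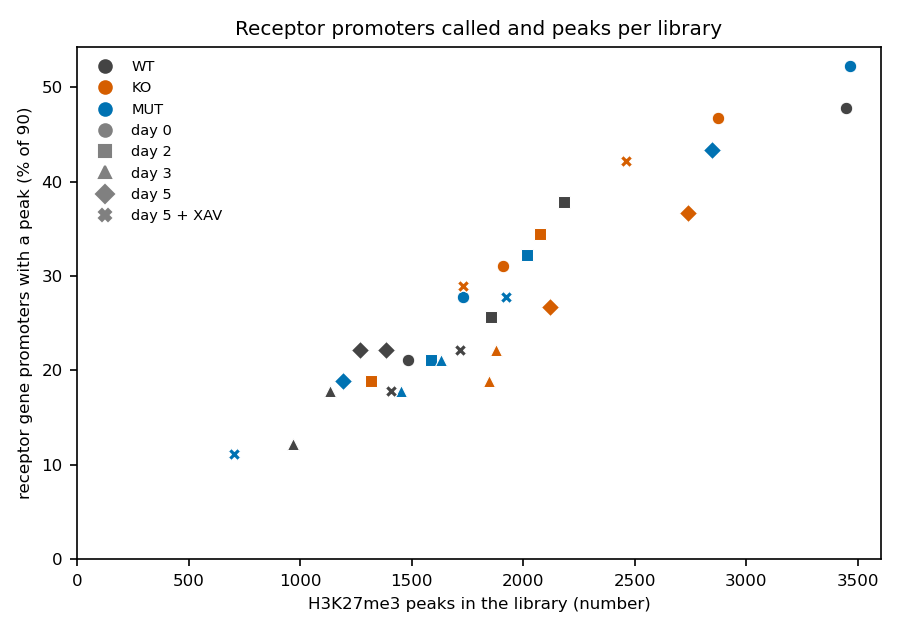
Number of H3K27me3 peaks in a library (horizontal axis) and share of the 90 receptor promoters with a peak (vertical axis, percent), 1 point per library, with colour for genotype and shape for time point. The share goes from 11.1% in the library with 704 peaks to 52.2% in the one with 3466.

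At days 0 and 2 the gap was small beside the spread of lines: 32.8% ± 11.4 of receptor promoters were called in KO and 33.1% ± 12.1 in WT (SD, n = 4), -0.278 points apart, and leaving out a line moved the gap to between -8.06 and 7.5 points. At day 0 the lines of a genotype were far apart, with 21.1% in WT70 and 47.8% in WT72, 31.1% in KO15 and 46.7% in KO25, and 52.2% in CM40 and 27.8% in CM59.

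Gene by gene, 29 receptor promoters were called in more KO than WT libraries after day 2, 0 in fewer and 61 in as many, of which 38 were never called. Of the 48 receptor promoters called in some library at day 0, 28 (58.3%) had more KO calls, against 46.2% of all promoters called at day 0, and 0 had fewer, against 2.59%. No promoter in the genome passed the test of KO against WT over all 5 time points (0 of 2857 tested, 0%, by the exact test at an adjusted p of 0.05), and 117 had an unadjusted p under 0.05, with 0 of the 48 receptor promoters tested among them. The smallest p that this design allows a promoter is 0.000257, which needs the genotypes to separate fully at all 5 time points. A promoter that differs only after day 2 cannot reach it, so the test can hardly detect such a difference. On simulated calls 78 of 100 promoters with calling rates of 95% and 5% were recovered, but 0 of 100 with rates of 75% and 25%. The simulated rates held at all 5 time points and the libraries were drawn independently, unlike a difference of later days alone.

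Grm3 (chr5:9485541-9725170, minus strand), a metabotropic glutamate receptor, differed most. After day 2 it was called in KO1 and KO15 at day 5 and again at day 5 XAV, in CM59 at day 5, in CM69 at day 5 XAV and in neither WT line at any of these times (4 of 6 KO, 2 of 6 MUT and 0 of 6 WT libraries, exact p = 0.153 and adjusted p = 1 for KO against WT). It was also called in WT72 at day 0 and in both WT lines at day 2. Where called after day 2, its peak ranked low, between the 6.54th and the 33.4th percentile of its library. Gabra4 and Gabrb1, which share their peak, had a peak in 3 of 6 KO and 0 of 6 WT libraries of the later days (exact p = 0.0833, adjusted p = 0.98), in KO15 at day 5 and in both KO lines at day 5 XAV.

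The other genes that differed by 3 libraries were Chrna5, Drd1, Drd5 and Grm2. Chrna5, an accessory nicotinic subunit, was called in 3 KO and 0 WT libraries, as was Drd1, the main dopamine receptor of the direct striatal pathway (exact p = 0.153 and adjusted p = 1 for each). Drd5 was called in 6 KO and 3 WT libraries, WT72 holding the 3 WT calls (exact p = 0.25, adjusted p = 1). Without WT70 the genotypes had equal shares for Drd5. Grm2 was called in 3 KO and 0 WT libraries (exact p = 0.639, adjusted p = 1), with 1 of 2 WT lines at day 0 and at day 2. When all libraries were reduced to 704 peaks, none of these 7 genes had a call left in a KO or WT library after day 2, so that setting cannot compare them.

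At a single time point, few receptor promoters had the mark in the pair of KO lines while both WT lines lacked it. At day 2 there were 0 of the 48 called at day 0 (0.415% of all promoters called at day 0), and at day 3 there was 1, Grm2 (11.1%). At day 5 there were 5 (10.4%), Adra1b, Chrna4, Chrna5, Drd1 and Grm3, against 16.8% of all promoters called at day 0. At day 5 XAV there were 6 (12.5%), Gabra2, Gabra4, Gabrb1, Glra1, Grm3 and Grm4, against 7.6%. Gabra4 and Gabrb1, which share their peak, are 1 observation there. With the gene's 5′ end alone, only Chrna5, Drd1 and Grm3 remained at day 5 (3 of 46, against 17.3% of all promoters). At day 5 XAV that setting dropped Grm4 (5 of 46, against 7.7%). The opposite, both WT lines and neither KO line, held for 0 of the 48 at day 2 (2.28% of all promoters called at day 0), day 3 (0.104%), day 5 (0.346%) and day 5 XAV (0.242%). Grm5, not called at day 0, was called in both WT lines and no other library at day 2. With equal peak numbers within a time point, 27 receptor promoters were called at day 0. Both KO lines and neither WT line then held for none of them at day 3 (3.4% of all promoters called at day 0 in that setting), for Drd5 at day 5 (5.4%) and for Chrm3 and Gabra5 at day 5 XAV (5.04%). The opposite held for Chrm2 at day 3 (2.37%), Adra1a and Adra2b at day 5 (4.73%) and Drd4 at day 5 XAV (1.76%), so none of the genes named above for days 3 and 5 was among them.

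MUT libraries varied widely. Over the days after day 2, 23.3% ± 11.2 of receptor promoters were called in MUT (SD, n = 6), 4.26 points above WT and within the spread of libraries of the same genotype and day (8.84 points). At day 5 XAV the mean was 19.4% in MUT and 20% in WT, and at equal peak numbers the MUT minus WT difference was -0.37 points over all libraries and -1.3 within time points. The 2 MUT lines were far apart, CM59 at 43.3% and CM69 at 18.9% at day 5 but CM59 at 11.1% and CM69 at 27.8% at day 5 XAV. Of 90 receptor genes, 23 were called in more MUT than WT libraries after day 2 and 7 in fewer. Among the 48 called at day 0 the counts were 22 (45.8%) and 7 (14.6%), against 36% and 9.57% of all promoters called at day 0. Both MUT lines and neither WT line held for none of the receptor genes at day 3 (4.98% of all promoters called at day 0), day 5 (2.63%) and day 5 XAV (0.311%), and both WT lines and neither MUT line for none at day 3 (0.0346%), day 5 (0.207%) and day 5 XAV (0.829%).

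Htr7, a serotonin receptor that raises cAMP, differed most between MUT and WT, with CM59 at day 3 and day 5 and CM69 at day 5 XAV and no WT library after day 2 (exact p = 0.667, adjusted p = 1). No promoter passed the test of MUT against WT (0 of 2896, 0%, 13 at an unadjusted p under 0.05) or of KO against MUT (0 of 2952, 0%, 16 at an unadjusted p under 0.05). In the latter, Adra1a was the receptor gene with an unadjusted p under 0.05, with later calls in 5 of 6 KO and 1 of 6 MUT libraries (exact p = 0.0208, adjusted p = 1), with 3 in WT.

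With XAV939, the share of receptor promoters differed by less than the spread of the lines. At day 5, 28.3% ± 9.6 were called without and 25% ± 10.7 with the inhibitor (SD, n = 6), a difference of -3.33 points. Paired by line, the share changed by -4.44 points in WT70 and 0 in WT72, by 2.22 in KO1 and 5.56 in KO15, and by -32.2 in CM59 and 8.89 in CM69. With CM59 left out, the difference was 2.44 points. Without the day 5 XAV library of CM59, a choice made after seeing the data, the difference was -0.556 points. Of 39 receptor promoters tested, 2 (5.13%) were called in more and 16 (41%) in fewer XAV libraries, against 19.9% and 40.4% of 2348 promoters tested. None passed the exact test (0 of 2348, 0%, 9 at an unadjusted p under 0.05), and the smallest p of this design, 0.00926, cannot pass an adjustment of this size.

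Chrna4 was called in 3 of 6 libraries without XAV and in 0 with it, and Grm4 in 6 and 3, where both WT lines and CM59 lost the call (exact p = 0.167 and adjusted p = 1 for each). Glra1, the main adult glycine receptor subunit, went from 0 to 3, in KO1, KO15 and CM69 (exact p = 0.167, adjusted p = 1). The remaining genes that differed most were Adra1b (2 to 0), Adra1a (5 to 3) and Drd1 (3 to 1), with exact p of at least 0.333. Both KO lines called Chrna4, Adra1b and Drd1 without XAV, and with it they made 0, 0 and 1 of these calls.

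Regions that the study lists as changed between KO and WT overlapped 46 of the 90 receptor promoters (51.1%), against 12.8% of all promoters. Those listed as gained under XAV at day 5 held 31 receptor promoters (34.4%, 8.17% of all promoters). Regions with a later gain and no difference at day 0 held 17 (18.9%, 5.84%), Adra1d, Chrm3, Chrna4, Drd1 and Grm4 among them, and those lost at day 0 and gained later held 16 (17.8%, 3.06%), Drd4, Grik1, Grm3 and Grm6 among them. Those lost at day 0 with no later gain held 6 (6.67%, 3.04%), Adra2a, Gria2, Grik3 and Htr1b among them. Among promoters called in at least 2 libraries, the shares of receptor promoters and of all promoters were 64.6% and 55.6% for the XAV list, 35.4% and 39.7% for the later gain, 33.3% and 20.9% for the loss followed by a gain and 12.5% and 20.6% for the loss alone. The lists were chosen on these KO and WT libraries, so their direction is not independent evidence.

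The NMDA receptor genes, which the literal pattern left out, were all called somewhere. Grin2a was called in 29 libraries, Grin2c in 28, Grin3a in 25, Grin1, the obligate subunit, in 17, Grin2b in 7, Grin3b in 3 and Grin2d in 1. Grin1 had 0 of 6 calls at day 0 and 6 of 6 at day 2, and after day 2 it was called in 6 KO, 3 MUT and 2 WT libraries. Of the 6 NMDA genes tested for KO against WT, 0 passed the exact test at an adjusted p of 0.05. Adding the 7 genes to the list moved the KO minus WT difference after day 2 from 10.2 to 11.3 points.

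Genes that make, pack, clear and anchor the transmitters were listed by role. Among 9 genes of transmitter synthesis, Gad1 and Gad2, which make GABA, and Chat, which makes acetylcholine, were called in all 30 libraries, and 4 genes in at most 2. Th, the rate-limiting enzyme of dopamine and noradrenaline synthesis, was called in 12 of 12 libraries at days 0 and 2 and 1 of 12 at days 3 and 5 (exact p = 2.92e-05, adjusted p = 0.00476), the one gene of these lists to pass a test. With the line as a block it did not pass, but that setting keeps fewer libraries and allows no p as small as this, so it cannot decide. Of 7 vesicular transporter genes, Slc18a3 (acetylcholine) was called in 30 libraries and Slc32a1 (GABA and glycine) in 29. The gene for the glutamate carrier of vesicles Slc17a6 was called in 13, with 5 WT, 0 KO and 2 MUT libraries after day 2. Of 12 uptake transporter genes, 58.3% ± 9.13 per library were called in KO after day 2 and 37.5% ± 13.7 in WT, and of 29 anchoring and auxiliary genes 23.6% ± 2.6 and 11.5% ± 5.63 (SD, n = 6), beside 8.03% and 4.84% of all promoters, with 0 genes past the exact test for KO against WT in either list. Of the GABA-B and delta receptor genes, Grid1 was called in 30 libraries, Gabbr2 in 28 and Gabbr1 in none.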

How the data were processed

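H3K27me3 CUT&RUN peaks of 30 libraries were used. The authors used Trim Galore on the reads, Bowtie (local alignment, mm10 GRCm38.p6) and Picard for duplicates. They ran SEACR in stringent mode on each library against its IgG, which enters only there, and the SEACR version is not given in the sources used here. The deposited peak values are signal, total and highest coverage in whole numbers, not scaled for library size, and only ranked peaks within a library here. Region lists came from the authors' DiffBind 3.0.15 comparison.

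Calls and tests were made in Python 3.11.15 with numpy 2.4.6 and pandas 2.3.3, sequence was read with samtools 1.23.1 and pysam 0.24.0 and figures were drawn with matplotlib 3.10.9. Receptor genes, lists and comparisons were chosen with earlier results of these data known. Named are genes called in all or no library, and those with the largest differences in called libraries: at least 3 of 6 after day 2 between genotypes (up to 12), at least 2 of 6 for XAV (up to 6), and 8 for time. The exact conditional test was two-sided and stratified by time point (genotypes) or genotype (XAV, time), with Benjamini-Hochberg adjustment over all promoters called in at least 2 libraries, and was tested on simulated data. Days of one line were taken as independent, so p-values rest on repeated days of few lines. List shares get no test. Alternatives changed the window, the overlap, the peaks kept, the starts, the lines and the filter. XAV samples are paired by cell line, per the labels. The correlation of line differences with those under XAV, over 3179 promoters, was 0.11 in WT, 0.173 in KO and -0.239 in MUT. A promoter here counts as called or not, so a partial change under a peak is not seen. Some genes of the lists entered all counts but are not reported by name here.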

Additional observations from a re-analysis of the deposited data

How the results depend on the processing

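The KO minus WT difference in receptor promoters after day 2, 10.2 points, kept its sign and moved by less than the spread of lines with other windows, overlaps, starts, stronger peaks or the NMDA genes added (6.48 to 11.3 points). It was 0.556 points when all libraries were cut to equal peak numbers and -1.67 when those of a time point were. Both settings fix the number of peaks, so they cannot show a general gain of the mark. Leaving out a line gave 6.85 to 13.5 points. The MUT minus WT difference was -0.37 and -1.3 points under the same 2 settings. The count of promoters past the test between later and earlier days, 96, was 43 at equal peak numbers (22 called more often later and 21 less often, against 7 and 89), 22 with the stronger 50% of the peaks and 20 to 77 without a line: 20 without WT72, 26 without WT70, 38 to 43 without KO15, KO25, CM40, CM59 or CM69. The cause of these shifts was not tested. With the cell line as a replicate block (added after seeing the data, over 4 lines) it was 0, with 130 at an unadjusted p under 0.05, over fewer libraries. Of the receptor genes, Chrna4 passed the exact test with the gene's 5′ end alone (adjusted p = 0.0338) and with equal peak numbers per time point (adjusted p = 0.00446), and over all alternatives of the exact test its adjusted p ran from 0.00446 to 0.628. Chrm4 was called in 16.7 percentage points more of the later libraries with a 3 kb window, against -41.7. For XAV, the replicate block gave -3.33 points and 0 promoters past the test, as without it, and for time -4.58 points. No test between genotypes or of XAV had a promoter past the threshold under any setting tried. Library depth is unknown, which limits what a missing call shows.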
